A study of Rattus norvegicus with 9 samples.

Results

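miR-34a-5p and miR-210-3p are microRNAs (miRNAs) of the cellular stress response, and their levels were followed in rat serum under rotenone, a plant-derived inhibitor of complex I of the mitochondrial respiratory chain. Both were taken by name from the matrix of read counts, where they are 2 of 567 mature miRNAs. The study sequenced small RNA from the serum of adult male wild-type Wistar rats in 9 libraries, 3 in each of 3 groups: Control, early Parkinson's disease (EPD, rotenone for 10 days) and late Parkinson's disease (LPD, rotenone for more than 40 days, described as terminal). EPD and LPD animals received rotenone by daily intraperitoneal injection of 2 mg per kg. The labels carry 1 treatment term for every sample, and no vehicle or other handling of the Control animals is described. Serum is a mixture of RNA released by many tissues and blood cells, so fewer releasing cells and less RNA per cell cannot be told apart here.

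miRNAs are short RNAs that pair with messenger RNAs mainly through their seed, bases 2 to 8 from the 5′ end, and lower the output of those messengers. miR-34a is a direct transcriptional target of the tumour suppressor p53, and the miR-34 family represses genes of the cell cycle and of cell survival. miR-210 is induced by hypoxia-inducible factors in many cell types and represses, among others, ISCU1 and ISCU2, scaffold proteins for the iron-sulphur clusters that complex I needs.

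The mature sequences below are those of RefSeq (build GRCr8), written 5′ to 3′ with the seed in capitals. They are shown because the seed decides which serum miRNAs belong with each of the stress miRNAs. The seed of miR-34a-5p was found in 5 rat mature miRNAs of the RefSeq table, and that of miR-210-3p in 1.
miR-34a-5p: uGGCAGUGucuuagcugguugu
miR-34b-5p: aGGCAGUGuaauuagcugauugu
miR-34c-5p: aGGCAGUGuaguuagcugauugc
miR-449a-5p: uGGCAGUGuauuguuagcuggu
miR-449c-5p: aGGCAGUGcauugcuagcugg
miR-210-3p: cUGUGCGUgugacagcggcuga

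Counted position by position from the 5′ end, miR-34a-5p has the same letter as miR-449a-5p at 15 of 22 positions and as miR-34b-5p or miR-34c-5p at 11 of 22 each. miR-34b-5p and miR-34c-5p are nearly the same molecule, with 21 of 23 positions alike. Their genes lie next to each other on chromosome 8 and overlap Hoatz, and Mir449a and Mir449c are neighbours on chromosome 2 close to Mcidas. Mir34a (chromosome 5, near Gpr157) and Mir210 (chromosome 1, near Rassf7) each overlap another annotated gene. RefSeq also places miR-3574 on the opposite strand over the same 22 bases as miR-210-3p. miR-3574 has no entry in the count matrix. No source used here says whether counting was by strand, so reads of the 2 strands cannot be told apart.

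Depth differed between the groups and sets how the late values can be read. The libraries held 1108167 to 1539557 counts in Control, 1136537 to 1668807 in EPD and 132609 to 305019 in LPD. Between 86 and 143 of the 567 miRNAs were at 0 in a Control library, 110 to 129 in an EPD library and 370 to 414 in an LPD library. Low counts were rare in LPD: only 3, 9 and 39 miRNAs had 1 to 9 counts in LPD 1, 2 and 3, while each of the other 6 libraries had 127 to 157. Red cell miRNAs (5 of 5 detected in every library) made up 5.65 to 19.0% of the counts in Control, 15.2 to 34.6% in EPD and 27.0 to 38.5% in LPD. In every library most of these were miR-16-5p (182420 of 195009 in Control 1, 97780 of 112602 in LPD 1), so the shares mainly follow that 1 miRNA. The platelet and endothelial list (miR-223-3p, miR-126a-3p and miR-126a-5p, 3 of 3 detected in every library) made up 3.06 to 3.88% in Control, 3.84 to 6.18% in EPD and 6.19 to 9.36% in LPD. Its most abundant member was miR-223-3p, with a mean of 49559 CPM in LPD, against 14794 for miR-126a-3p and 10889 for miR-126a-5p. Hepatocyte miRNAs made up 46.6% of Control 2 and 2.13 to 6.35% of every other library, with miR-802-5p at 0 in all 3 LPD libraries. The part of these differences in the results below was not tested, and levels are given as CPM (counts scaled to a common library size) after TMM scaling of the library sizes.

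In serum after long rotenone exposure miR-34a-5p was close to undetected, while in the early group and in controls it was a well-covered miRNA of middling abundance. It had 376, 539 and 716 counts in Control, 573, 1191 and 893 in EPD and 0, 0 and 12 in LPD. On the CPM scale these were 306, 689 and 413 in Control, 392, 918 and 561 in EPD and 0, 0 and 79.1 in LPD. EPD 2 and Control 2 were the highest libraries of their groups, the EPD and Control ranges overlapped, and all 3 LPD libraries lay below all 6 others. Among the 294 miRNAs that could be tested it ranked 100 by mean CPM in Control, 86 in EPD and 201 in LPD.

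miR-210-3p was likewise at 0 in 2 of 3 late libraries and well covered in all 6 others. It had 331, 273 and 602 counts in Control, 525, 452 and 722 in EPD and 31, 0 and 0 in LPD. The CPM were 270, 349 and 348 in Control, 359, 348 and 453 in EPD and 103, 0 and 0 in LPD. Its 6 Control and EPD values stayed within a narrower band than those of miR-34a-5p, and again every LPD library lay below them. The single LPD library with counts was LPD 1, whereas for miR-34a-5p it was LPD 3, and LPD 2 had counts of neither.

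**Figure D1:**
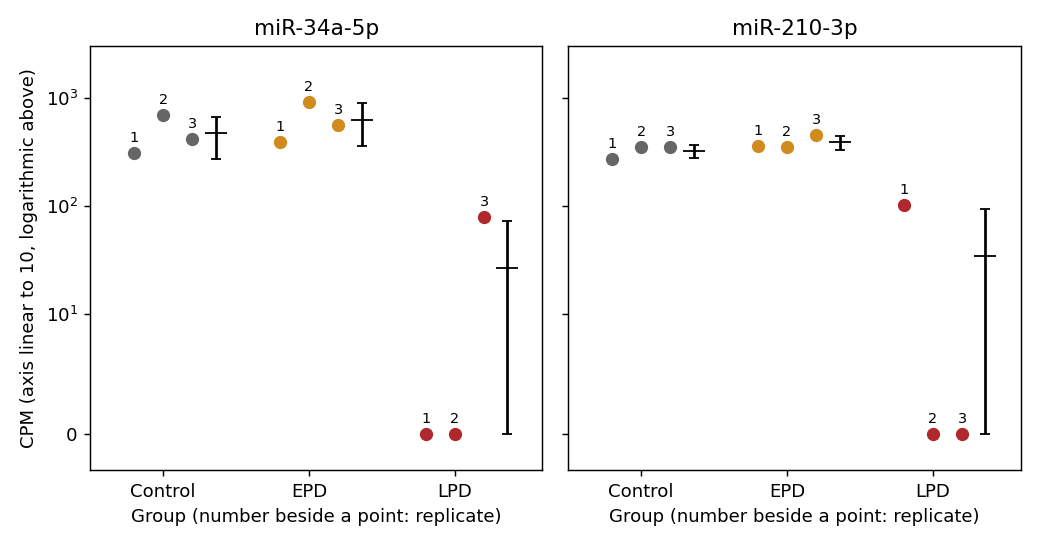
CPM of miR-34a-5p (left) and miR-210-3p (right) in each library of Control, EPD and LPD, on an axis that is linear to 10 and logarithmic above, with the mean and SD of each group beside its points (the lower bar ends at 0 where the SD exceeds the mean). The 6 Control and EPD libraries lie between 306 and 918 CPM for miR-34a-5p and between 270 and 453 CPM for miR-210-3p, and 2 of 3 LPD libraries are at 0 in each panel.

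From highest to lowest, the group means of both stood in the order EPD, Control, LPD. miR-34a-5p averaged 469 ± 197 CPM in Control, 623 ± 269 in EPD and 26.4 ± 45.7 in LPD (SD, n = 3 each). miR-210-3p averaged 322 ± 45.4 CPM in Control, 387 ± 57.9 in EPD and 34.2 ± 59.3 in LPD. EPD and Control, neighbours in that order, did not differ beyond their spread for either miRNA, and the LPD means each rested on 1 library.

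The first question was whether 10 days of rotenone moved the stress miRNAs. Neither passed the test between EPD and Control. The EPD and Control means of miR-34a-5p gave a log2 fold change of 0.41 (SE 1.14, adjusted p = 0.995, edgeR's quasi-likelihood test with Benjamini-Hochberg adjustment). Those of miR-210-3p gave 0.26 (SE 1.16, adjusted p = 0.995). In that comparison 0 of 294 miRNAs (0%) passed with edgeR, beside 1 with DESeq2 and 0 with limma-voom, and the unadjusted p was under 0.05 for 11. The spread in this fit is shared with LPD, where each miRNA stood at 0 in 2 libraries. With EPD and Control fitted alone the SE was 0.44 for miR-34a-5p (log2 fold change 0.48, adjusted p = 0.716) and 0.30 for miR-210-3p (0.34, adjusted p = 0.699). The miR-34a-5p value leaned on single libraries: it stood at 0.04 without EPD 2 and at 0.90 without Control 2.

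A comparison that needs no scaling sets the 2 miRNAs against each other within a library. The ratio of miR-34a-5p to miR-210-3p counts was 1.09, 2.63 and 1.24 in EPD and 1.14, 1.97 and 1.19 in Control. In 4 of these 6 libraries the ratio was thus near 1, and miR-34a-5p was in excess in EPD 2 and Control 2. The share of miR-34a-5p in the sum of both was 72.5% in EPD 2 (Wilson 95% interval 70.3 to 74.6%) and 66.4% in Control 2 (63.1 to 69.5%), against 52.2 to 55.3% in the other 4 libraries. Hepatocyte miRNAs made up 2.40% of the counts in EPD 2 and 46.6% in Control 2, and their part in these ratios was not tested. These intervals, like the floors given below, cover counting error only.

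The second question was the state after more than 40 days. miR-34a-5p fell in LPD to 26.4 ± 45.7 CPM, against 469 ± 197 in Control, a 17.8-fold difference in means (log2 fold change -4.31, SE 1.39, adjusted p = 0.0365). For miR-210-3p the mean was 34.2 ± 59.3 CPM in LPD against 322 ± 45.4 in Control, a 9.41-fold difference that did not pass (-3.14 on the log2 scale, SE 1.30, adjusted p = 0.0933). All LPD libraries lay below all Control libraries for both. So 1 of the 2 was called lower, where 32.7% of all tested miRNAs were called lower, and 2 of 2 lay below without overlap, as did 41.8% of all tested. The median log2 fold change of all 294 miRNAs was -1.04, with 96 called lower and 13 higher, but among the 124 miRNAs with counts in all 9 libraries it was 0.04, with 22 called lower and 16 higher, and without a filter it was -2.34. Of the 294, 73 had a more negative fitted value than miR-34a-5p and 80 than miR-210-3p.

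These calls depended on which libraries entered. The miR-34a-5p call between LPD and Control was lost without any 1 of the 3 Control libraries (adjusted p = 0.0609, 0.0796 and 0.0691 without Control 1, 2 and 3), without any 1 of the EPD libraries (0.0526, 0.0640 and 0.0604 without EPD 1, 2 and 3), without LPD 2 (0.0644) and with LPD and Control fitted alone (0.147). miR-210-3p passed with DESeq2 (adjusted p = 0.0400), with limma-voom (0.0200) and without LPD 1 (0.00499), the library that held its counts.

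Late serum was also set against early serum. miR-34a-5p fell in LPD to 26.4 CPM, against 623 in EPD, a 23.6-fold difference in means (log2 fold change -4.72, SE 1.41, adjusted p = 0.0268). miR-210-3p had 34.2 CPM in LPD against 387 in EPD, an 11.3-fold difference that did not pass (log2 fold change -3.41, SE 1.31, adjusted p = 0.0718). In this comparison 32.7% of all tested miRNAs were called lower and 45.6% lay below without overlap, as both stress miRNAs did. The miR-34a-5p call was lost without EPD 2 (adjusted p = 0.0797), without EPD 3 (0.0568) and with LPD and EPD fitted alone (0.0799), and miR-210-3p passed without LPD 1 (0.00374), with DESeq2 (0.0251) and with limma-voom (0.0146). LPD is the shared arm of this comparison and the preceding one, so they are not independent, and the difference between the falls of the 2 miRNAs was not tested.

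**Figure D2:**
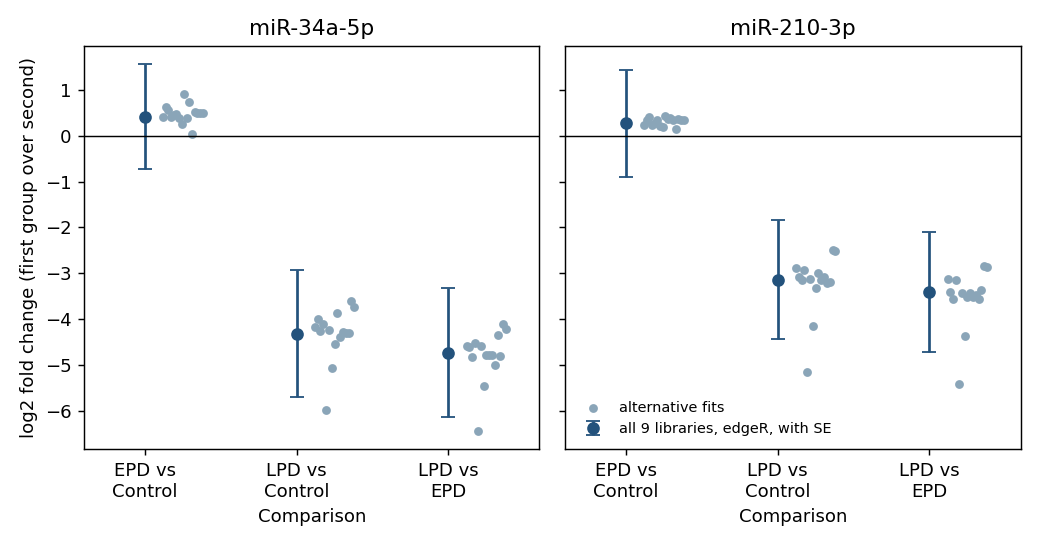
log2 fold changes of miR-34a-5p (left) and miR-210-3p (right) for EPD against Control, LPD against Control and LPD against EPD, as fitted on all 9 libraries (large points, bars are the SE) and in the alternative fits (small points). Fits in which the miRNA is at 0 in every remaining LPD library are left out, and every value shown for LPD lies below 0, between -6.43 and -2.50.

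The shallow LPD libraries raise the question of how many counts could have been seen. At the mean share of Control, miR-34a-5p would have had 129, 88.5 and 55.9 counts in LPD 1, 2 and 3, where 0, 0 and 12 were found. At the lowest share of any Control library the numbers would have been 103, 71.2 and 45.0. For miR-210-3p the mean Control share gives 93.8, 64.6 and 40.8 counts, where 31, 0 and 0 were found. A count of 0 allows up to 3 counts, which is 9.94 CPM in LPD 1, 13.5 CPM in LPD 2 and 19.8 CPM in LPD 3. With so few miRNAs at 1 to 9 counts in LPD 1 and 2, a count there may stand for less than 1 molecule. The numbers computed from Control shares may thus stand for few molecules, and the part of depth in the zeros was not tested. For the same reason no lower bound on a fold is given from these floors.

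Their place relative to miRNAs that were more abundant in Control can be read directly from the counts. Of the 99 tested miRNAs with a higher mean CPM in Control than miR-34a-5p, 97 had counts in all 3 LPD libraries, 1 (miR-99a-5p) had counts in a single LPD library, and 0 had a lower LPD mean. Of the 111 above miR-210-3p in Control, 103 had counts in all 3 LPD libraries, and 1 had a lower LPD mean, miR-34a-5p itself. Among miRNAs somewhat less abundant in Control, some had equally low or lower levels: miR-345-3p had 22.1 CPM in LPD against 269.7 in Control, miR-149-5p 11.0 CPM in LPD against 209 in Control, and miR-322-3p and miR-324-5p no count in LPD against 201 and 176 CPM in Control. Over the whole matrix, 355 miRNAs had counts in all 6 Control and EPD libraries, of which 124 had counts in 3, 41 in 2, 67 in 1 and 123 in 0 LPD libraries.

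**Figure D3:**
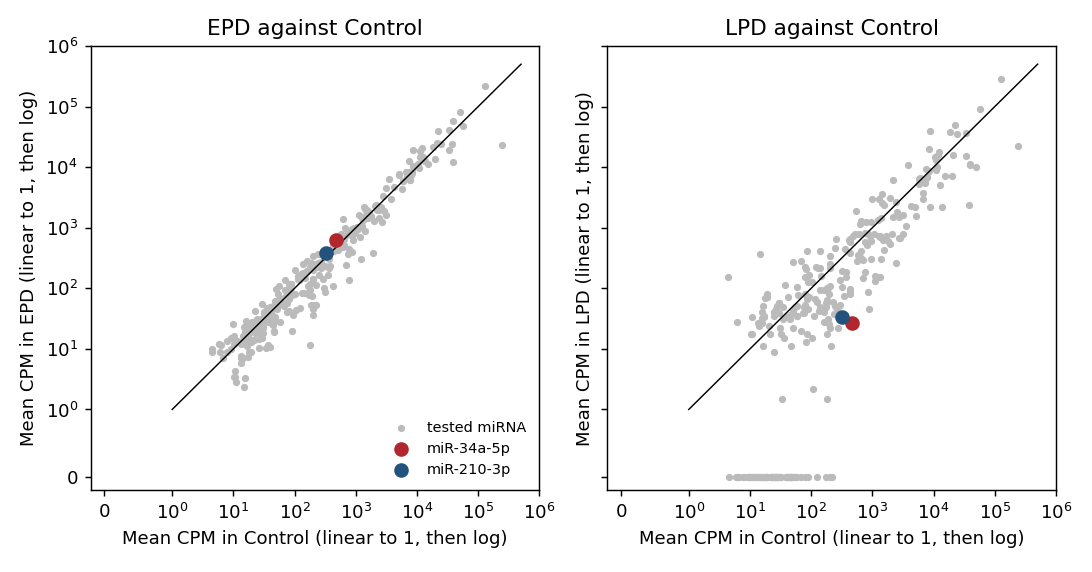
Mean CPM of the 294 tested miRNAs in EPD (left) and LPD (right) against Control, on axes that are linear to 1 and logarithmic above, with the line of equal levels. miR-34a-5p and miR-210-3p lie close to the line for EPD and below it for LPD (26.4 and 34.2 CPM, against 469 and 322 in Control), and the row of points at 0 on the right holds miRNAs with no LPD count.

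The relatives that share the seed of miR-34a-5p were far scarcer in Control and EPD. miR-449a-5p, a miRNA of multiciliated cells, had 33, 18 and 76 counts in Control, 66, 57 and 51 in EPD and 0, 0 and 10 in LPD. miR-34c-5p, also rich in multiciliated cells and testis, had 18, 14 and 31 in Control, 9, 28 and 33 in EPD and 0, 0 and 15 in LPD. miR-34b-5p had 0, 2 and 4 in Control, 0, 3 and 7 in EPD and 0, 0 and 14 in LPD. All 4 were thus seen in LPD 3 alone among the LPD libraries, and miR-34b-5p had its highest count there, in the smallest library of the study. miR-449c-5p had at most 2 counts in any library and 0 in LPD.

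The make-up of the seed family therefore differed in LPD 3. miR-34a-5p made up 87.9, 94.1 and 86.4% of the family's counts in Control and 88.4, 93.0 and 90.8% in EPD. In LPD 3 it made up 23.5% (Wilson 95% interval 14.0 to 36.8%) of 51 counts, beside 27.5% for miR-34b-5p, 29.4% for miR-34c-5p and 19.6% for miR-449a-5p. Summed, the family took 0.0386 to 0.0538% of all counts of a library in Control, 0.0388 to 0.113% in EPD and 0.0385% in LPD 3, and had no count in LPD 1 and LPD 2. With 1 library there is no test of this, and how reads of such similar sequences were assigned is described in no source used here. In the fit miR-34c-5p had a log2 fold change in LPD against Control of 0.86 (SE 1.42, adjusted p = 0.665) and miR-449a-5p of -0.65 (SE 1.35, adjusted p = 0.727), and neither passed.

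**Figure D4:**
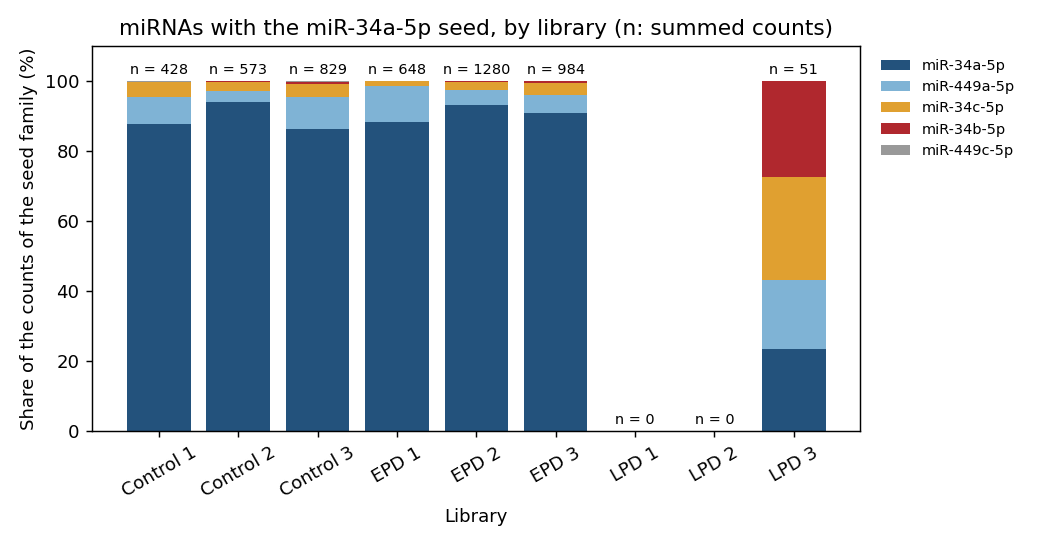
Share of each miRNA with the miR-34a-5p seed in the summed counts of that family, by library, with the summed count above each bar. miR-34a-5p makes up 86.4 to 94.1% in the Control and EPD libraries and 23.5% in LPD 3, and LPD 1 and LPD 2 have no count of the family.

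The opposite arms of the hairpins were rare. miR-34a-3p had no count in any library. miR-210-5p had 9, 5 and 8 counts in Control, 3, 1 and 4 in EPD and 0 in all LPD libraries, so the 3p arm made up 99.4, 99.8 and 99.4% of the miR-210 counts in EPD and 97.4, 98.2 and 98.7% in Control. The EPD and Control shares did not overlap, but they rested on 1 to 9 counts of the minor arm and were not tested. miR-34c-3p (6 to 17 counts) and miR-34b-3p (2 to 33) were seen in all Control and EPD libraries and in no LPD library, LPD 3 included, where the 5p arms had 15 and 14 counts.

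Other miRNAs tied to p53 were looked up from a list of 14, of which 13 were in the matrix and 9 could be tested. Between LPD and Control 0 of 9 passed with edgeR, where 37.1% of all tested miRNAs did (3 at an unadjusted p under 0.05, 2 with DESeq2, 0 with limma-voom), with a median log2 fold change of -0.34, beside -1.04 over all tested miRNAs. Most of the 9 had counts in all 9 libraries, and the 124 miRNAs of the matrix that did had a median of 0.04. Between EPD and Control 0 of 9 passed, as did 0% of all tested (1 at an unadjusted p under 0.05, 0 with either other tool), with a median of -0.46 beside -0.05. Between LPD and EPD the median was 0.03, beside -0.92 over all tested miRNAs and 0.22 over those 124. In that comparison 1 of 9 was called higher, where 4.08% of all tested miRNAs were. That miRNA was miR-143-3p, a smooth muscle miRNA whose processing p53 enhances in human cells, with 36025 ± 4194 CPM in LPD against 18879 ± 3391 in EPD (log2 fold change 0.93, SE 0.31, adjusted p = 0.0415). Its call was lost in 9 of 17 alternatives, with adjusted p up to 0.133. They include leaving out Control 1 or 3, any EPD library, LPD 1 or LPD 2 in turn. Its cluster partner miR-145-5p averaged 2876 CPM in Control, 1893 in EPD and 675 in LPD, and did not pass in any comparison (adjusted p = 0.202 and 0.0801 for LPD against EPD and against Control). Of the miRNAs whose p53 link runs through transcription, the hepatocyte-rich miR-192-5p and miR-194-5p had log2 fold changes of -1.10 (SE 0.55, adjusted p = 0.161) and -1.86 (SE 0.69, adjusted p = 0.0660) in LPD against Control. Of the 9, 5 had a negative and 4 a positive value in that comparison. Positive were miR-16-5p (1.14, SE 0.43, adjusted p = 0.0660), which also makes up most of the red cell counts, and miR-34c-5p (0.86, SE 1.42, adjusted p = 0.665). So were miR-15a-5p (0.58, SE 0.40, adjusted p = 0.307) and miR-143-3p (0.11, SE 0.31, adjusted p = 0.789).

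Of 13 miRNAs tied to hypoxia, 12 could be tested. Between LPD and Control 0 of 12 passed with edgeR, where 37.1% of all tested miRNAs did (0 at an unadjusted p under 0.05, 2 with DESeq2, 0 with limma-voom), with a median log2 fold change of -0.35 beside -1.04. Most of the 12 had counts in all 9 libraries, and the 124 miRNAs of the matrix that did had a median of 0.04. Between EPD and Control 0 of 12 passed, as did 0% of all tested (0 at an unadjusted p under 0.05, 0 with either other tool), with a median of -0.25 beside -0.05. Between LPD and EPD the median was -0.16, beside -0.92 over all tested miRNAs and 0.22 over those 124. In that comparison 1 of 12 was called lower, where 32.7% of all tested miRNAs were. miR-27a-3p, a vascular and adipose miRNA, fell to 1646 ± 999 CPM in LPD, against 4442 ± 1023 in EPD (log2 fold change -1.43, SE 0.45, adjusted p = 0.0322). This call was lost in 9 of 17 alternatives, with adjusted p up to 0.10, among them leaving out any EPD library, LPD 1 or LPD 2 in turn. Of the 12, 7 had a negative and 5 a positive log2 fold change in LPD against Control. Furthest below 0 was miR-20b-5p, with 0, 0 and 7 counts in LPD. It had 15.4 CPM in LPD against 103 in Control (-2.90, SE 1.42, adjusted p = 0.152). miR-322-5p, the rodent counterpart of human miR-424, had 603 CPM in LPD against 964 in Control (-0.67, SE 0.45, adjusted p = 0.300). The widely expressed miR-107-3p, which is in both lists, had 420 CPM in LPD against 642 in Control (-0.62, SE 0.46, adjusted p = 0.341). On the positive side were miR-21-5p (0.67, SE 0.39, adjusted p = 0.226), miR-155-5p (0.40, SE 0.41, adjusted p = 0.485) and miR-26a-5p (0.33, SE 0.23, adjusted p = 0.308).

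The miRNAs with the pattern most like each stress miRNA were found by the root mean square difference of log2 CPM over the 9 libraries, each miRNA centred on its own mean. Nearest to miR-34a-5p were miR-674-5p (0.72 log2 units), miR-99a-5p (0.79) and miR-1839-5p (0.92). Nearest to miR-210-3p were miR-345-3p (0.35), miR-203b-3p (0.65) and miR-674-3p (0.83). The stress miRNAs themselves lay 2.64 log2 units apart. All 3 neighbours of miR-34a-5p had counts in LPD 3 alone among the LPD libraries (17, 21 and 21), and all 3 neighbours of miR-210-3p in LPD 1 alone (20, 37 and 32). The distance included the LPD libraries, where the step between 0 and a count is large. This sharing thus largely follows from the measure and is no separate result. In the whole matrix 40 miRNAs had counts in LPD 3 and no other LPD library, 31 in LPD 1 and 7 in LPD 2.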

How the data were processed

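The authors deposited raw counts (whole numbers) of mature miRNAs for each of 9 serum libraries (3 groups of 3) and the same counts as a matrix. The matrix and the single files differed in 0 values, and the counts are not normalized. Extraction used the miRNeasy serum kit and library preparation the QIAseq miRNA kit, per the labels' protocols. The submitters' processing notes name mRatBN7.2 as the build. Not given in the sources used here are the tools for alignment and counting, the annotation version and whether molecular identifiers were collapsed, so a count need not be 1 molecule.

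Groups and replicate numbers came from the sample titles. No source used here names the animal behind each library, so p-values cover only the spread among the libraries, which may be technical. Pairs of libraries within a group differed beyond sampling noise (chi-square per degree of freedom at least 30.7).

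Of 567 miRNAs, 294 passed edgeR's filterByExpr. It asked for at least 15 counts in total. In at least 3 libraries it also asked for the share that equals 10 counts in a library of median size. Both stress miRNAs were at 0 in 2 of 3 LPD libraries, so they passed through Control and EPD, and a miRNA could pass with no LPD count. The 294 were fitted over all 9 libraries with edgeR 4.0.16 (TMM, robust quasi-likelihood, no covariates, Benjamini-Hochberg adjustment, threshold 0.05). Log2 CPM for likeness used a prior count of 2. DESeq2 1.42.0, limma-voom (limma 3.58.1), other scaling, filters and sample sets served as alternatives. The 2 miRNAs and the lists were chosen with earlier results of these data known. List miRNAs were named if they passed, or as examples chosen after their values were seen (miR-145-5p, miR-192-5p, miR-194-5p, miR-16-5p, miR-34c-5p, miR-15a-5p, miR-20b-5p, miR-322-5p, miR-107-3p, miR-21-5p, miR-155-5p, miR-26a-5p), and likeness named the 3 nearest. miRNAs less abundant than the stress miRNAs in Control (miR-345-3p, miR-149-5p, miR-322-3p, miR-324-5p) were also chosen after their values were seen.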

Additional observations from a re-analysis of the deposited data

Results flagged for a closer look

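The changes of miR-34a-5p at the 2 stages of rotenone exposure differed from each other when tested directly: the log2 fold change of LPD over Control minus that of EPD over Control was -4.72 (SE 1.41, adjusted p = 0.0268 in edgeR's quasi-likelihood fit), which is the same test as LPD against EPD, since Control is shared. All 3 LPD libraries (0, 0 and 79.1 CPM) lay below all 3 EPD libraries (392, 918 and 561 CPM). The LPD value rested on 12 counts in LPD 3. The call was lost without EPD 2 (adjusted p = 0.0797), without EPD 3 (0.0568) and with LPD and EPD fitted alone (0.0799). Of all tested miRNAs, 32.7% were called lower in LPD against EPD.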

How the results depend on the processing

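The direction of both miRNAs held in all 3 comparisons under every alternative that gave a value (16 each, since a filter for counts in all 9 libraries drops both). For LPD against Control, leaving out 1 library gave log2 fold changes from -11.94 to -3.61 for miR-34a-5p and from -11.36 to -2.50 for miR-210-3p. For LPD against EPD the ranges were -12.43 to -4.10 and -11.71 to -2.85. The lowest value of each range came from leaving out the only LPD library with counts and is no measured fold. For EPD against Control the ranges were 0.04 to 0.90 and 0.15 to 0.44. miR-34a-5p no longer passed when only the groups compared were fitted (-4.23 for LPD against Control, -4.59 for LPD against EPD), where fewer libraries set the spread. miR-210-3p passed with DESeq2 (-2.92 against Control, -3.15 against EPD) and limma-voom (-5.14 and -5.42). The cause was not tested. Same-numbered libraries were not alike in their deviations from the group means (correlations -0.10 to 0.08). With 3 libraries per group this cannot exclude a pairing. With the replicate block 101 miRNAs were called in LPD against Control and 101 against EPD, miR-34a-5p stood at -5.05 (adjusted p = 0.0363) and -5.45 (0.0310) and miR-210-3p at -4.15 (0.0939) and -4.37 (0.0752). Called miRNAs over the whole table numbered 109 for LPD against Control, 38 among miRNAs with counts in all 9 libraries and 52 with only those groups fitted. For LPD against EPD they numbered 108, 35 and 67, and for EPD against Control 0, with 1 among miRNAs with counts in all 9 libraries, 1 with DESeq2 and 0 to 1 when a library was left out. RLE scaling moved the median of all miRNAs in LPD against Control to -0.83, against -1.04 with TMM. The LPD values rest on 12 and 31 counts.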

Other observations

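The arms of miR-674, one near each stress miRNA in pattern, were seen in different late libraries. miR-674-5p had 17 counts in LPD 3 and 0 in LPD 1 and 2, and miR-674-3p had 32 counts in LPD 1 and 0 in LPD 2 and 3, although both arms had counts in all 6 Control and EPD libraries (225.7 and 141 CPM on average in EPD, 231.7 and 112 CPM in Control). They were chosen after their values were seen, and no test was made.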
